A study of Mus musculus with 8 samples.

Results

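The 10 genes described here encode the fibulins and the main proteins of the elastic fibre: Fbln1, Fbln2, Fbln5, Efemp1, Efemp2, Eln, Fbn1, Fbn2, Lox and Ltbp1. A gene counted as carrying an m6A peak where the summit of a peak, its highest point, lay in one of its annotated exons (GENCODE M21, mouse genome GRCm38). By this rule 5 of the 10 genes had a peak, among 6075 of 55450 annotated genes with a peak in any list. Their 56 summits were part of 42744 summits in 4 peak lists. m6A-RIP-seq, in which RNA fragments with N6-methyladenosine are pulled down with an antibody (IP) and set against the RNA before pulldown (input), had been run on primary vascular smooth muscle cells (VSMCs) grown out from the descending aorta of C57BL/6J mice. The control group, shCTR, was transduced with a lentiviral vector that expressed a hairpin against a plant microRNA, and the knockdown group, shMettl14, with one that expressed a hairpin against Mettl14, a subunit of the complex that writes m6A. Neither group was free of virus. The adventitia had been digested away and the endothelium scraped off before the cells grew out. Replicates A and B of each group gave 4 IP and 4 input samples and 1 peak list per IP sample, and no source used here says whether a letter stands for a separate culture or whether cells of several mice were pooled. The level of Mettl14 RNA is not measured by peak lists, so the knockdown was not checked here. Pairs of values below are for replicate A, then B.

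The elastic fibre gives the artery wall its recoil. Tropoelastin, the product of Eln, is laid onto microfibrils of fibrillin, the products of Fbn1 and Fbn2, with fibulins and the fibulin-like proteins Efemp1 and Efemp2 as linkers, and is crosslinked by the lysyl oxidase Lox, while Ltbp1 ties latent TGF-β to fibrillin. m6A is written mainly at the motif DRACH (where D stands for any base but C, R for a purine and H for any base but G), most often in long internal exons and near stop codons.

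The DRACH site nearest to the median summit of a region or cluster shows which motif lay under it. Such sites are printed for Fbln2, Fbln5, Fbn1 and Ltbp1, as 29 nt of transcript from GENCODE M21 (GRCm38), 5′ to 3′ in the sense of the gene, with the motif in capitals. A motif match is no measurement of m6A at that base. In Fbln2 (chromosome 6, plus strand) the sites lay in exon 2 at chr6:91233333-91233361, chr6:91233802-91233830 and chr6:91234203-91234231, across the junctions that end exon 3 (A at 91250960) and begin exon 5 (A at 91254451), and in the last exon on both sides of the stop codon at chr6:91271768-91271796 and chr6:91271958-91271986. The Fbln2 sites of exon 2 and the last exon, and the Fbln5 sites of single clusters, were chosen after their values were seen.
Fbln2 exon 2, first cluster of summits: gtcctactttgtGGACTttggcagcaccg
Fbln2 exon 2, middle cluster: gttgcccttcccAGACCcacagcagctgc
Fbln2 exon 2, last cluster: tacactgccaccTGACCgagcccaggtct
Fbln2 exon 3 to exon 4: tggtgcccagagTGACAtctgtaggatag
Fbln2 exon 4 to exon 5: caagcaatgctgTGACTgctgtggcctgg
Fbln2 last exon, coding: tctggagccgcgGGACTttgccctagatg
Fbln2 last exon, 3′ UTR: gactctgtaactTAACTtaatcatgctga
In the other genes the sites lay at chr12:101750664-101750692, chr12:101750707-101750735 and chr12:101750548-101750576 (Fbln5, minus strand, 3′ UTR), chr2:125301712-125301740 (Fbn1, minus strand, coding) and chr17:75390627-75390655 (Ltbp1, plus strand, 3′ UTR).
Fbln5, median of all summits: ggaggagaaaggAAACCagcaagaatgag
Fbln5, nearer cluster: ggctaaggcctcTGACActgcctttcacc
Fbln5, farther cluster: ggtcactctgaaGGACAccctgccctcag
Fbn1: agccggtggctgGGACCtactccttacaa
Ltbp1: agacactgcaccTAACCcagaatgtggca
The commonest m6A pentamer, GGACT, stood at 2 of these 12 sites, both in Fbln2. The first Fbln5 site, 66 nt past the stop codon, was the nearest for the shCTR B summit alone, while the other summits of Fbln5 lay nearest to the sites at 23 and 182 nt.

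Fbln2, Fbln5, Fbn1, Lox and Ltbp1 carried a peak in every list, and Fbln1, Efemp1, Efemp2, Eln and Fbn2 carried none in any list, in exons or in introns. Of all coding genes, 16.1% had an exonic summit in all 4 lists. The absence of a peak does not give a transcript's level, since the lists hold no value for regions that were not called, and little RNA, few m6A-bearing copies and few expressing cells cannot be told apart. The genes without a peak were Fbln1 (ENSMUSG00000006369.14, chromosome 15, 85205949 to 85286535, plus strand), Efemp1 (ENSMUSG00000020467.15, chromosome 11, 28853204 to 28926743, plus strand), Efemp2 (ENSMUSG00000024909.15, chromosome 19, 5473954 to 5482517, plus strand), Eln (ENSMUSG00000029675.12, chromosome 5, 134702593 to 134747323, minus strand) and Fbn2 (ENSMUSG00000024598.9, chromosome 18, 58008623 to 58210487, minus strand). Eln, the gene of elastin itself, has 37 exons with a median length of 60 nt and a last exon of 1232 nt that holds 19 DRACH motifs and no GGACT. Fbn2 matches Fbn1 in exon number, with 65 exons each and a median of 126 nt in both, and its last exon of 2010 nt holds 44 DRACH motifs against 25 in that of Fbn1. In DRACH motifs of the last exon the genes overlapped, with 7 to 44 in those without a peak and 17 to 77 in those with one. The density over whole transcripts ran from 11.7 DRACH per kb in Eln to 25 in Efemp1 among them, and from 18 in Fbln2 to 23.4 in Lox among the genes with peaks, beside a median of 20.4 over 21613 coding genes.

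**Figure D1:**
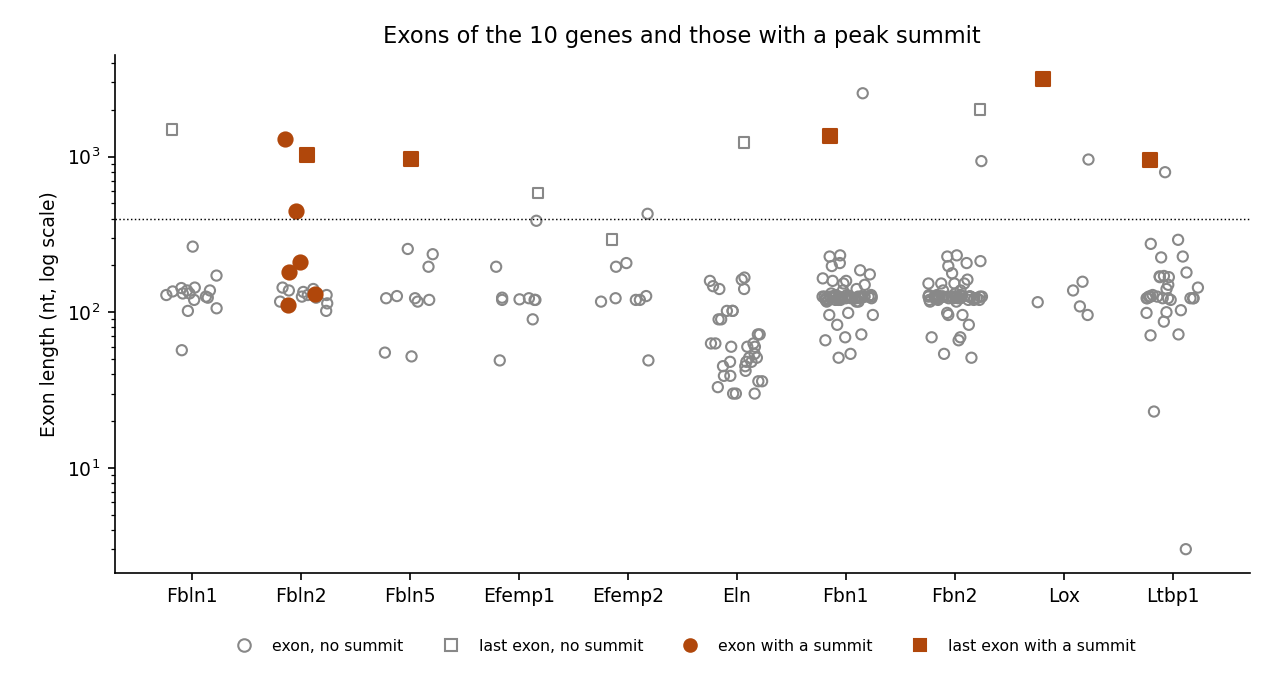
Length in nt (log scale) of each exon of the coding transcript used for each of the 10 genes, as circles or, for the last exon, squares. Filled symbols are exons with a summit in at least 1 list, the dotted line marks 400 nt, and Fbln2 is the gene with filled symbols below it.

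The exons of these genes were mostly short, and the summits mostly avoided the short ones, with Fbln2 as the exception. Of 276 exons in the 10 genes, 259 were under 400 nt and not the last, and 4 of these had a summit, all in Fbln2. Of the 10 last exons, 5 had a summit, and of 7 other exons of at least 400 nt, 2 had one (exons 1 and 2 of Fbln2). In Fbn1, which has 63 internal exons of at most 232 nt, every summit lay in the last exon of 1349 nt.

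The cells' identity could be checked only by which markers had a peak. Of 10 smooth muscle markers, 2 had an exonic summit in all 4 lists (Lmod1 and Cald1) and Acta2 had none in any list. Of 5 endothelial markers, 2 did (Pecam1 and Cdh5), of 5 fibroblast markers 1 did (Pdgfra), and of 5 macrophage markers none did. A peak is no measure of RNA level, and the part of other cell types in the results was not tested.

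Fbln2, which encodes a fibulin of the vessel wall that binds elastin and fibrillin, held 37 of the 56 summits. This gene (ENSMUSG00000064080.12, chromosome 6, 91212455 to 91272540, plus strand, 18 exons) had 8 and 8 exonic summits in the shCTR lists and 10 and 11 in the shMettl14 lists. Both shMettl14 lists had more than both shCTR lists, with means of 10.5 ± 0.71 and 8.0 ± 0 (SD, n = 2 lists each), and an exact permutation test over the 4 lists gave p = 0.333, the smallest p that 2 lists against 2 allow. These are raw counts, not scaled to list length. The whole lists held 11158 and 8655 summits in shCTR and 13675 and 9256 in shMettl14. The counts of shMettl14 lay above those of shCTR in the same way in 8.35% of 6075 genes with a summit. With 3 shCTR summits that lay up to 25 nt outside exons 3 and 4 counted too, Fbln2 had 9 and 10 in shCTR and 10 and 11 in shMettl14, and the groups met. Fbln2 ranked 33rd by mean number of summits among 6075 genes with a summit. Counted as distinct intervals, which can hold several summits each, it had 5 and 5 in shCTR and 5 and 8 in shMettl14.

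The summits of Fbln2 fell into 7 regions. Exon 2, of 1289 nt, held 16 of them, 4 and 3 in shCTR and 5 and 4 in shMettl14. The last exon, of 1019 nt, which contains the stop codon, held 10, with 2 in each shCTR list and 3 in each shMettl14 list. The summit without a counterpart in shCTR lay 303 nt past the stop codon in shMettl14 A, with 24 overlapping fragments, and 296 nt past it in shMettl14 B, with 27. Both positions, 91272180 and 91272173, lay inside the peak intervals of shCTR A and B, which ran to 91272244 and 91272233. Only a separate summit was absent there. Exons 3, 4, 5 and 6, of 112, 130, 181 and 210 nt, held 9 summits together. Exon 1 held 1 summit in shCTR B with 9 fragments and 1 in shMettl14 B with 8, and none in the A lists.

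Peaks in short internal exons were rare elsewhere. Exons under 400 nt other than the last held 1.33% to 2.22% of all summits placed on coding transcripts, depending on the list, and 9 of the 56 summits of the elastic fibre genes. Of 5142 genes with a placed summit, 263 had any summit in such an exon, and Fbln2, with 4, was the 1 gene that had summits in as many different short exons over the 4 lists together. Each shCTR list and shMettl14 A had summits in 2 of them and shMettl14 B in 3. The merged intervals over exons 3 and 4, at 91250711 to 91250929 and 91252308 to 91252532 of chromosome 6, both reached into introns. The peak regions over exons 5 and 6, from 91254312 and 91256113, began in introns as well.

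**Figure D2:**
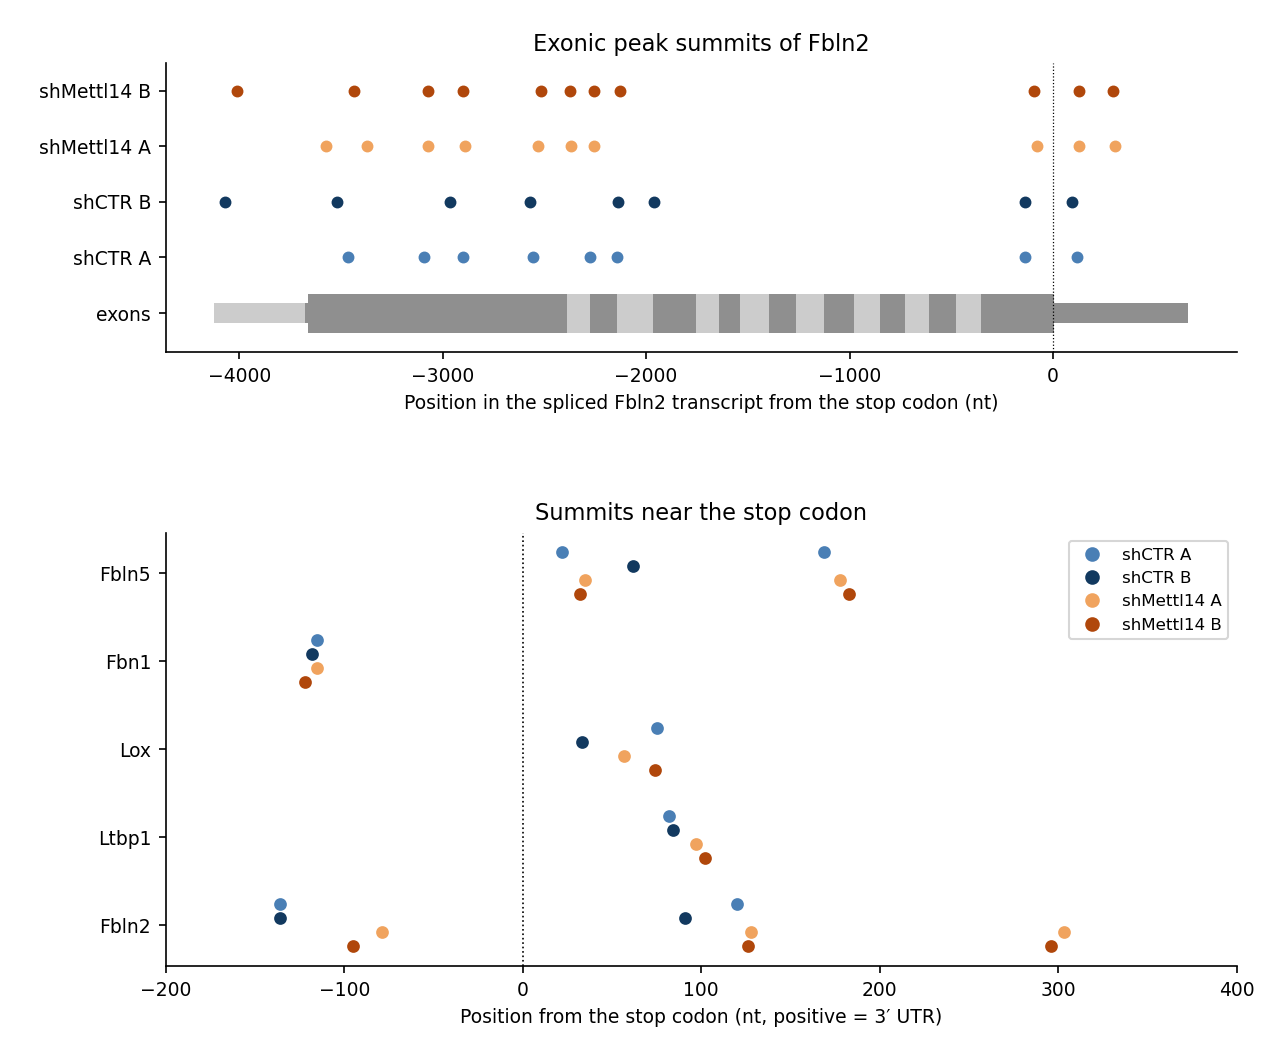
Positions of exonic summits in the spliced transcript, in nt from the stop codon (dotted line), 1 point per summit coloured by list. The upper panel shows Fbln2 with its exons in alternating grey (narrow where untranslated) and summits from exon 1 to exon 6 and again at the stop codon, and the lower panel shows all 5 genes between 200 nt before and 400 nt after the stop codon.

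Whether a summit of exons 3 and 4 counted as exonic depended on a few bases. Peaks over exon 3 were present in all 4 lists, but the summits of shCTR A and shCTR B lay 4 and 25 nt outside the exon, so only the shMettl14 lists counted. Over exon 4, the summit of shCTR B lay 13 nt outside. Summits of exons 5 and 6 also lay near the start of their exon. Exon 5 begins at −2145 nt from the stop codon, and its summits lay at −2144 and −2137 nt in shCTR and −2128 nt in shMettl14 B. Exon 6 begins at −1964 nt, and its summit in shCTR B lay at −1961 nt. With summits up to 50 nt from an exon included, a choice made after seeing the data, the 10 genes had 14 and 14 summits in shCTR and 15 and 16 in shMettl14, in place of 13 and 12, and 15 and 16.

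The summits of the shMettl14 lists lay further 3′ than those of the shCTR lists across the whole data set. Over 4095 clusters with exactly 1 summit per list and within 1 gene, the median shift from shCTR to shMettl14 was 24 nt towards the 3′ end of the gene (quartiles 13 and 33.5 nt), 23 nt in plus strand genes and 24.5 nt in minus strand genes. Both shMettl14 summits lay 3′ of both shCTR summits in 63.7% of the clusters and 5′ of both in 2.03%. Of 10 such clusters in elastic fibre genes, 6 were of the first kind (5 in Fbln2 and 1 in Ltbp1) and none of the second, with a median shift of 23.8 nt. In the Fbln2 clusters over exons 3 and 4 the shift was 31 and 26 nt, and in Fbn1 it was −2 nt. Replicates of 1 group differed too, by −14 nt from A to B in shCTR and −7 nt in shMettl14. The shortest peak interval, which MACS2 by default sets to its fragment length, was 141 and 170 bp in shCTR A and B and 97 and 112 bp in shMettl14 A and B. The differences in shortest interval, each divided by 2, came to 25.5 bp between the groups and −14.5 and −7.5 bp within them, next to the shifts of 24, −14 and −7 nt. The part of fragment length in the shift was not tested. The count of Fbln2 summits by exon above therefore carries a difference between lists that was not particular to Fbln2.

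The remaining genes had their summits close to the stop codon. Fbn1 (ENSMUSG00000027204.13, chromosome 2, 125300594 to 125507993, minus strand), the gene of fibrillin-1, had a single summit in each list, in the coding part of the last exon, at −115 and −118 nt from the stop codon in shCTR and −115 and −122 nt in shMettl14. The 4 lists placed it almost at the same base. Its pileup, meaning how many fragments overlapped there, was 63 and 62 in shCTR and 55 and 59 in shMettl14. Its fold enrichment, which is (pileup + 1) over (background + 1), was 7.58 and 12.1 in shCTR and 9.89 and 15 in shMettl14, and the groups overlapped.

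Ltbp1 (ENSMUSG00000001870.16, chromosome 17, 75005568 to 75392512, plus strand) had a single summit in each list, in its last exon of 957 nt, 82 to 102 nt past the stop codon. The pileup was 76 and 49 in shCTR and 54 and 37 in shMettl14. In both groups replicate A was higher than B, and the groups overlapped. An intronic summit of Ltbp1 in shMettl14 A lay 1923 nt from the nearest exon and did not enter the counts.

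Lox (ENSMUSG00000024529.14, chromosome 18, 52516067 to 52529867, minus strand) had a single summit in each list, 33 to 75 nt past the stop codon in a last exon of 3167 nt. The pileup was 43 and 32 in shCTR and 37 and 26 in shMettl14, and the groups overlapped. Its enrichment was among the weakest of each list, at percentiles of 1.68 and 11.8 in shCTR and 12.5 and 7.63 in shMettl14. The last exon of Lox held 77 DRACH motifs, the most of the 10 genes, but its summits stayed within 75 nt of the stop codon. The interval files that the authors deposited as the overlap of both replicates list the Lox peak for shMettl14 but not for shCTR, although the intervals of shCTR A and B shared 299 bp. Of 6044 intervals of shCTR A that overlapped shCTR B, 255 (4.22%) were likewise missing from the shCTR overlap file, and of 5931 in shMettl14, 247 (4.16%) from the other. The Lox peak was therefore not counted as a difference between groups. The overlap files of both groups held 7 of the 11 peak regions of the elastic fibre genes.

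Fbln5 (ENSMUSG00000021186.9, chromosome 12, 101746565 to 101819055, minus strand), a fibulin that binds elastin and cell surface integrins, had 2 and 1 summits in shCTR and 2 and 2 in shMettl14, all in the 3′ UTR between 22 and 183 nt past the stop codon. The highest pileup was 58 and 49 in shCTR and 53 and 43 in shMettl14. It stood at 169 nt past the stop codon in shCTR A, 178 in shMettl14 A and 183 in shMettl14 B, but at 62 nt in shCTR B, which had no summit at the farther site. The highest fold enrichment was 6.99 and 5.30 in shCTR and 7.87 and 8.93 in shMettl14, so both shMettl14 lists were above both shCTR lists on this measure, while the pileups overlapped. The value of shCTR B thus came from another position than the other 3. At the nearer site, 22 to 62 nt past the stop codon and present in all 4 lists, the fold enrichment was 4.08 and 5.30 in shCTR and 4.81 and 5.65 in shMettl14, and the groups overlapped.

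The 5 genes shared a high pileup on a high background. The background is the number of fragments expected at the summit from the input. At the summits of the elastic fibre genes the median pileup was 63 and 50 fragments in shCTR and 42 and 38 in shMettl14, against 13 to 16 over all summits of a list. The median background at their summits was 11 and 8.29 fragments in shCTR and 8.17 and 5.27 in shMettl14, against 0.620 to 0.970 over all. That placed their median background at the 99.0th to 99.2nd percentile of each list and their median pileup at the 93rd to 97th. The median fold enrichment, by contrast, stood at the 11.7th to 20.2nd percentile. The exon 2 region of Fbln2 had a pileup at percentiles of 98.3 to 99.6 and a fold enrichment at 16.3 to 28.5, and its last exon a pileup at 93.2 to 96.2 and a fold enrichment at 6.86 to 24.5. The fold enrichment stood higher in Fbn1, at percentiles of 46.7 to 89.6, and in Ltbp1, at 58.2 to 71.6, while over exon 4 of Fbln2 it ranged from 8.20 to 58.7.

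**Figure D3:**
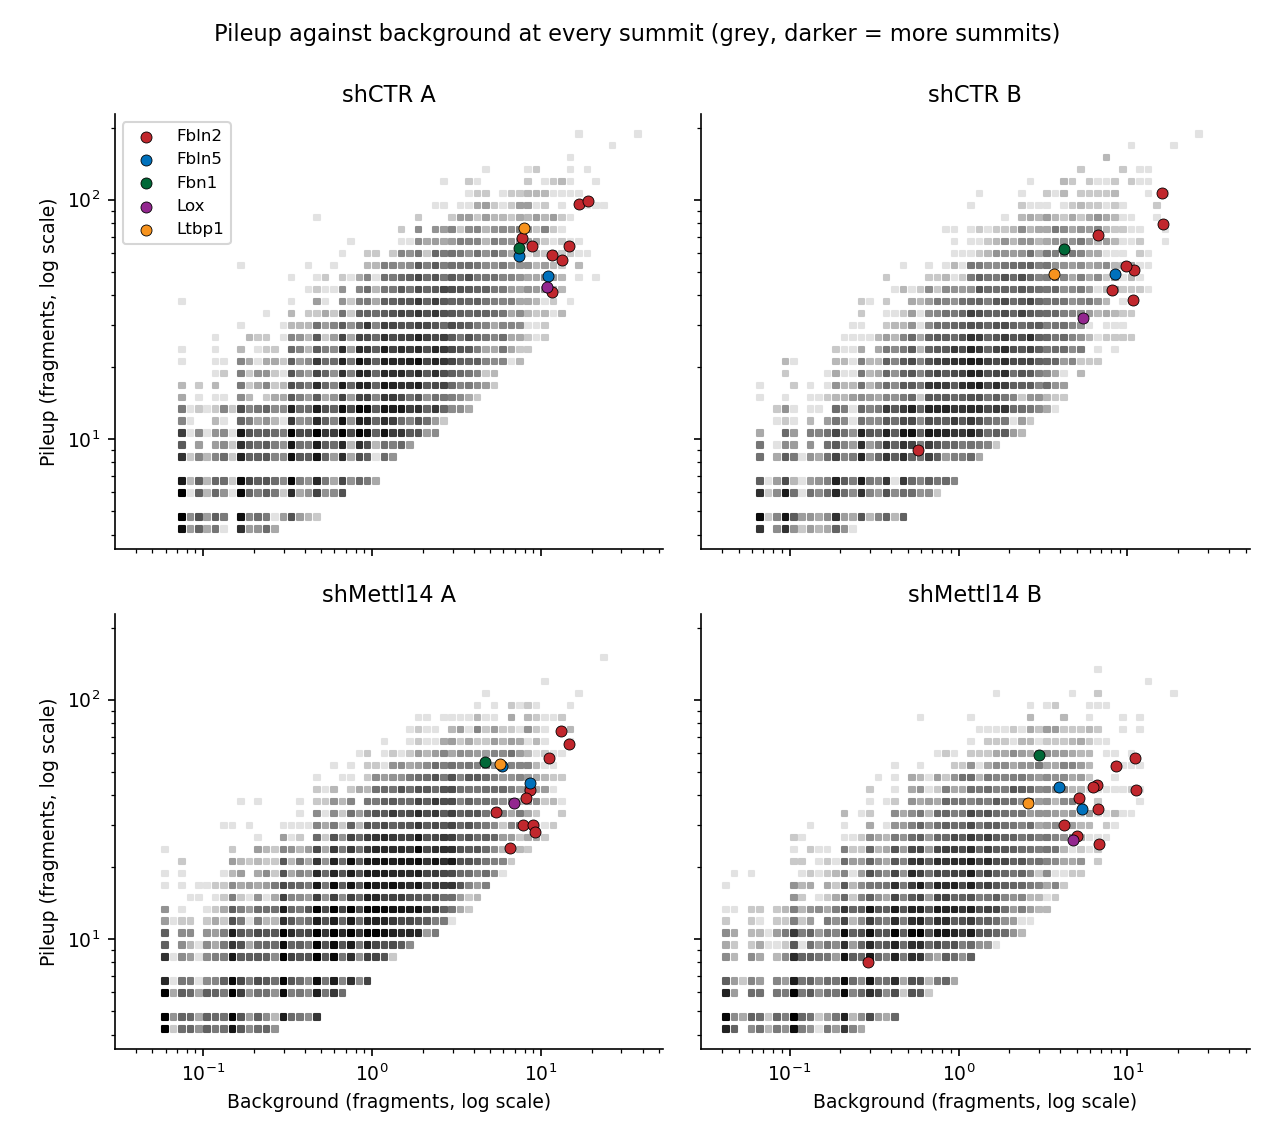
Pileup against background, both in fragments on log scales, at every summit of each list (grey squares, darker where more summits fall) with the summits of the 5 genes in colour. Apart from the exon 1 summit of Fbln2 in both B lists, the coloured points sit at the right, where backgrounds are high, and those of Lox and many of Fbln2 lie in the lower part of the pileups called at that background.

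The positions of the summits were set beside those of all genes. Within 200 nt of the stop codon lay 53.8% and 50% of the summits of the elastic fibre genes in shCTR and 46.7% and 43.8% in shMettl14, while 25.4% to 27.2% of all placed summits did. All 19 summits of Fbln5, Fbn1, Lox and Ltbp1 lay there, and 8 of 37 of Fbln2. The share was 51.9% ± 2.72 in shCTR and 45.2% ± 2.06 in shMettl14 (SD, n = 2 lists each, exact permutation p = 0.333). In the last exon or another exon of at least 400 nt lay 84.6% and 83.3% of their summits in shCTR and 86.7% and 81.2% in shMettl14, against 97.8% to 98.7% of all, and the shortfall came from exons 3 to 6 of Fbln2. Of these 9 summits, 8 lay in intervals whose midpoint was not exonic, so a count by midpoints leaves those peaks out and cannot test the shortfall. In the last exon alone lay 53.8% and 50% of the summits in shCTR and 53.3% and 50% in shMettl14, against 63.8% to 64.8% of all. By summits, the share in last or long exons was 84% ± 0.91 in shCTR and 84% ± 3.83 in shMettl14 (SD, n = 2). A DRACH motif lay within 50 nt of 54 of the 56 summits, and within 50 nt of 95% to 96.2% of all summits. Both exceptions were Fbln2 summits of shCTR lists, 71 and 52 nt from the nearest motif. GGACT lay within 50 nt of 12 of the 56 summits, 9 in Fbln2 and 3 in Lox, and within 50 nt of 19.7% to 23.7% of all placed summits.

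To compare shMettl14 with shCTR, intervals of the 4 lists that shared at least 1 bp were merged into 11361 regions, of which 11 held an exonic summit of an elastic fibre gene. All 4 lists held 8 of these 11, while for all regions the share was 43.4% (4929 regions). None was found in both shCTR lists and neither shMettl14 list, as were 1.71% of all regions, and none in both shMettl14 lists alone, as were 1.79%. The others were exon 5 of Fbln2, missing from shMettl14 A, exon 6, found in shCTR B alone with 42 fragments, and exon 1, found in the B lists. The exon 5 peak had 64 and 71 fragments in shCTR and 39 in shMettl14 B.

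In pileup, 5 of the 8 regions had both shMettl14 lists below both shCTR lists and none had both above, beside 37% and 2.45% of all regions tested. The highest pileup over exon 2 of Fbln2 was 99 (95% Poisson interval 80.5 to 121) and 107 (87.7 to 129) in shCTR and 74 (58.1 to 92.9) and 57 (43.2 to 73.9) in shMettl14. The value of shMettl14 A stood at the middle cluster of exon 2 and the others at the last cluster, where shMettl14 A had a pileup of 65 and a background of 14.7 in place of 13.1. Over exon 4 the highest pileup was 69 and 65 in shCTR, read 13 nt outside the exon in shCTR B, and 42 and 44 in shMettl14. Exon 3 (39 and 42, then 34 and 30) and the last exon (59 and 53, then 39 and 43) had the same order, as had Fbn1. These intervals cover counting error only. The lists also differed in median pileup and in shortest interval, so pileups were centred on each list's median before testing, which left 2 regions below (exons 2 and 4 of Fbln2) and 1 above (Fbln5), beside 14.6% and 19% of all. The limma pileup test on log2(pileup + 1) gave −0.37 ± 0.23 (SE) for exon 2 and −0.35 ± 0.24 for exon 4, with an adjusted p of 0.982 for both. No region of the elastic fibre genes, and 0% of all 4929 regions, passed an adjusted p of 0.05. At an unadjusted p under 0.05 the limma pileup test had none among these genes, beside 1.42% of all regions that were lower in shMettl14. Fisher's exact test on pileups summed over replicates, which compares the libraries and not the conditions, gave p = 0.028 for exon 2 and an adjusted p of 1.0. Lower regions at that level made up 1.12% of all.

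**Figure D4:**
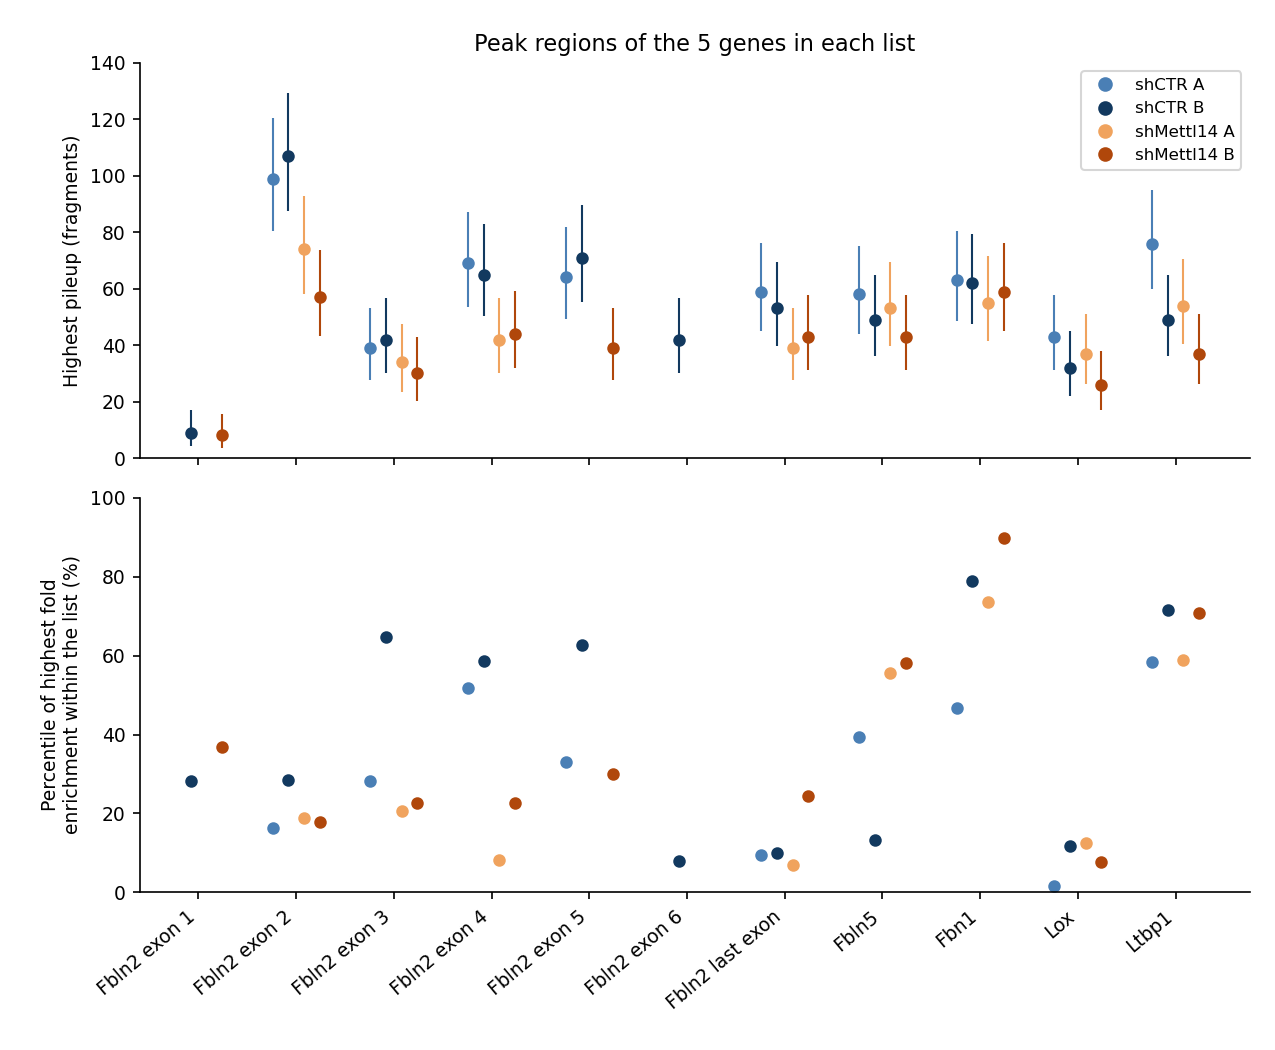
Highest pileup in fragments (upper panel, with 95% Poisson intervals) and within-list percentile of the highest fold enrichment (lower panel) for the 11 peak regions, 1 point per list that holds the region. The shCTR points lie above the shMettl14 points in pileup over exons 2, 3 and 4 and the last exon of Fbln2 and in Fbn1, and in fold enrichment over exons 3 and 4, while Fbln5 has the reverse order in fold enrichment.

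In rank of fold enrichment, exon 4 of Fbln2 was lower and Fbln5 higher in both shMettl14 lists, and neither passed the test. Over exon 4 of Fbln2 the fold enrichment was 7.99 and 8.95 in shCTR and 4.49 and 5.91 in shMettl14. These values came from different positions. The summit lay at the exon's first base (−2275 nt from the stop codon) in shCTR A and 13 nt outside the exon in shCTR B. In the shMettl14 lists it lay inside the exon, at −2255 and −2256 nt. Ranked among the 4929 regions tested, exon 4 was the 1 region of these genes with both shMettl14 lists lower (exon 3 was another by percentile among all summits of a list, but not by this ranking), beside 15.8% of all regions, and Fbln5 the 1 with both higher, beside 17%. The limma rank test, on normal scores of the ranks, had 0 of 8 regions past an adjusted p of 0.05, as had 0% of all 4929. Exon 4 alone had an unadjusted p under 0.05 (0.030, adjusted p = 0.951), beside 2.52% of all regions that were lower in shMettl14 at that level. Its estimate was −1.18 ± 0.51 with all 4 lists and ran from −1.61 to −0.76 with 1 list left out, and the unadjusted p was above 0.05 without shMettl14 A and without shCTR B. Fbln5 was at 0.88 ± 0.50 (limma, adjusted p = 0.993) and Fbn1 at 0.60 ± 0.54 (adjusted p = 0.999). Of the 8 estimates 4 were below 0 and 4 above, with a median of 0.11, beside a median of 0.00 over all regions.

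Averaged over the summits of Fbln5, the percentile of fold enrichment in its list was 21.5 and 13.3 in shCTR and 34.1 and 38 in shMettl14. The groups did not overlap, and the difference between 17.4 ± 5.78 and 36 ± 2.79 (SD, n = 2) had an exact permutation p of 0.333. At the nearer site alone, the only one that shCTR B had, the percentiles were 3.72 and 13.3 in shCTR and 12.5 and 17.8 in shMettl14 and overlapped, with a limma rank estimate of 0.42 ± 0.52 (adjusted p = 0.994). For Fbn1 (62.8 ± 22.6 and 81.6 ± 11.4), Lox (6.73 ± 7.13 and 10.1 ± 3.43) and Ltbp1 (64.9 ± 9.48 and 64.8 ± 8.52) the groups differed by less than the larger of their SDs. By −log10 p, however, the percentile was higher in both shMettl14 lists by more than either SD in Fbn1 (88.3 and 93.8, then 94.7 and 97.4) and in Fbln5 (70 and 68.9, then 79.7 and 73.9), as was the pileup percentile of Fbn1 (97 and 96.6, then 98.1 and 98.6), each with an exact permutation p of 0.333. For Fbln2 the mean percentile of fold enrichment was 16.3 and 18.7 in shCTR and 7.35 and 16.2 in shMettl14, which did not overlap but differed by less than the larger SD. The percentile of its strongest peak, 51.7 and 62.8 in shCTR and 20.7 and 36.9 in shMettl14, and its mean percentile of −log10 p, 73.9 and 62.8 in shCTR and 48.9 and 54.8 in shMettl14, were lower in both shMettl14 lists by more than either SD (exact permutation p = 0.333 for each). The strongest peak was that of exon 4 in shCTR A, exon 5 in shCTR B, exon 3 in shMettl14 A and exon 1 in shMettl14 B, the last with 8 fragments. For the gene-level percentiles in this paragraph, no share of all genes with the same order is at hand. An exact permutation p of 0.333 is the smallest possible here. Whether such orders are usual is therefore not known, and they are description only.

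The background at the highest summit differed in direction between regions of Fbln2. On log2(background + 1), centred per list, the limma estimates were −0.30 ± 0.19 over exon 2 and −0.33 ± 0.19 over the last exon, but 0.30 ± 0.21 over exon 3 and 0.28 ± 0.19 over exon 4. In each of these regions the groups did not overlap. Over exons 3 and 4, however, the groups were read at different positions. The shCTR summits lay 4 and 25 nt outside exon 3, and at the first base of exon 4 (shCTR A) or 13 nt outside it (shCTR B). The shMettl14 summits lay inside both exons. Of the 8 regions 3 had both shMettl14 lists below, beside 18.7% of all, and 2 had both above, beside 18%. Over Fbln5 the background was 7.44 and 8.43 in shCTR and 5.86 and 3.93 in shMettl14, a difference of −0.43 ± 0.19 in the limma background test (adjusted p = 0.779). The value of shCTR B is again that of the nearer site, where the backgrounds were 11 and 8.43 in shCTR and 8.57 and 5.37 in shMettl14 and overlapped. Fbln5 was the 1 region of the 8 at an unadjusted p under 0.05 (0.046), which leaving out any 1 list ended, beside 4.03% of all 4765 regions tested that were lower, and 0% passed the adjusted threshold. The centred pileup of Fbln5 differed by 0.13 ± 0.22 (limma, adjusted p = 0.989).

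**Figure D5:**
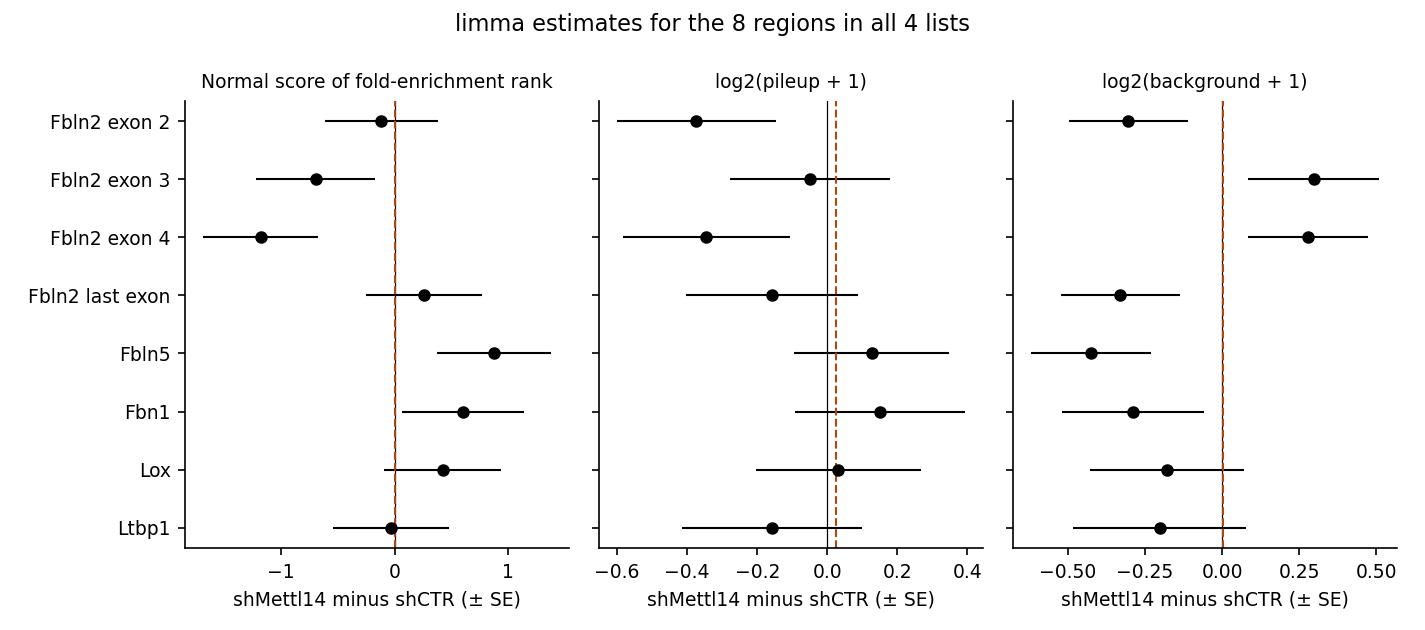
limma estimates of shMettl14 minus shCTR, with standard errors, for the 8 regions in all 4 lists, in normal scores (left) and on log2 scales (middle and right). Dashed lines are medians over all regions tested, and the background estimates of exons 3 and 4 of Fbln2 lie to the right of 0 while the other 6 lie to the left.

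The wider set of elastic fibre genes also split into genes with and without peaks. Of 22 further genes on a list chosen for their function (microfibril-associated proteins, emilins, lysyl oxidase-like enzymes, latent TGF-β binding proteins, ADAMTS and ADAMTS-like proteins, hemicentins and others), 11 had an exonic summit in any list and 6 in all 4. Among 21613 coding genes, 5514 had one in any list and 3475 in all 4. Emilin1, a glycoprotein at the interface of elastin and microfibrils, had 7 and 9 summits in shCTR and 11 and 6 in shMettl14. Loxl1, a lysyl oxidase-like enzyme that acts on elastin, had 4 and 3, then 5 and 3. Loxl3 (3 and 2, then 2 and 3), Loxl4 (2 and 2, then 3 and 2) and Emilin2 (1 and 1, then 2 and 2) had fewer, and in all but Emilin2 the groups overlapped. The order of Emilin2 was found in 8.35% of 6075 genes with a summit. Of the 10 summits of Loxl3, 6 also lay in an exon of another gene. The exon 4 region of Emilin1 and the exon 1 region of Loxl1 had high fold enrichments, at mean percentiles of 91.0 and 88.9. These exons are 1926 and 1501 nt long. Mfap2, Mfap4 and Mfap5, microfibril components with last exons of 508, 322 and 972 nt, had no summit in any list, nor did Ltbp4, all 4 named here after their values were seen. Of 16 peak regions of these genes 8 were in all 4 lists, beside 43.4% of all regions. None was in both lists of 1 group alone, as were 1.71% of all regions in shCTR and 1.79% in shMettl14. In the limma rank test 0 of the 8 had an unadjusted p under 0.05, beside 4.93% of all regions tested. Of their estimates 7 were above 0 and 1 below, while 49.9% of all were below.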

How the data were processed

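Per the methods, the authors aligned m6A-RIP-seq reads to mm10 (GRCm38), used SAMtools to keep reads with a unique position, ran MACS2 on every IP sample with its matched input, and intersected replicates with BEDTools. Versions and options are not given in the sources used here. The submitters' processing notes also name STAR. The 4 deposited lists give, per summit, the fold enrichment (a ratio of IP to background) and −log10 of the p-value and q-value. The 2 deposited overlap files give interval positions only. Groups and replicate letters came from sample titles. Total reads were not analysed here.

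Whole-number pileups and backgrounds were solved from the deposited ratio and −log10 p, and 100% of summits matched within 0.001. A complete coding transcript with the longest coding sequence was used per gene. Regions found in all 4 lists were tested with limma 3.58.1 (lmFit and eBayes, R 4.3.3, two-sided, Benjamini-Hochberg, threshold 0.05), with no replicate block, on normal scores of within-list ranks of the highest fold enrichment, on median-centred log2(pileup + 1) and on log2(background + 1) where the background exceeded each list's minimum. The scripts were tested on simulated data. Exact permutation tests were two-sided. p-values measure the spread between these samples, which may be technical, and the number of fragments limits each value. Ranks and centred values cannot show a loss of m6A common to all sites.

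Named were all 10 genes, each gene's region of highest mean percentile, regions of unadjusted p under 0.05 or present in both lists of 1 group alone, and, of the other genes, those that met these terms or ranked among the 5 with most summits. Members, lists and tests were chosen with earlier results of these data known. The summit shift and the counts of short exons were added after seeing the data. Scripts ran in Python 3.11.15 with scipy 1.17.1, pandas 2.3.3 and numpy 2.4.6.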

Additional observations from a re-analysis of the deposited data

How the results depend on the processing

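No region of the elastic fibre genes passed an adjusted p of 0.05 in the rank, pileup or background test under any alternative run, among them the replicate block, which gave 0 in each of the 3 tests, and Fisher's exact test. The smallest adjusted p over all alternatives was 0.634, 0.903 and 0.490 in the 3 tests. With 1 list left out, a group of 1 is assumed to vary like the other. Estimates kept their sign in 49 of 56, 41 of 48 and 50 of 56 cases. The same-letter correlation of deviations was 0.08 in rank and 0.22 in pileup over 2 pairs, and no source says that a letter marks a shared culture. With the letter as a replicate block (a paired fit), limma called 9 of all regions in pileup and 6 in background, in place of 0.

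The mean surplus of 3.0 summits per list in shMettl14 over the 10 genes became 1.5 as distinct intervals, 1.0 with equal numbers of top peaks, 1.0 at a −log10 q of at least 5, 2.0 with introns, 1.5 with summits up to 50 nt from an exon (added after seeing the data) and 1.37 per 10000 summits. Merging summits within 100 bp gave 1 region found in both lists of 1 group alone, in place of 0, beside 3.70% of all 16938 such clusters in shMettl14 alone. It held the shMettl14 summits of Fbln2 at 296 and 303 nt past the stop codon, which lay inside the shCTR peak intervals. Leaving out 1 list gave 0 to 1 such regions, with exon 6 of Fbln2 in shCTR alone without shCTR A (6.27% of all regions then) and exon 5 without shMettl14 B (3.13%). The mean share near the stop codon, 48.6%, was 25.5% within 100 nt and 60.6% by interval midpoints. That in the last or long exons, 84%, was 80.3% with a minimum of 600 nt and 98.2% by midpoints, which drop 8 of the 9 peaks in short Fbln2 exons because their midpoints are not exonic. The share with a motif, 96.0%, was 79.8% within 25 nt and 21.2% for GGACT. The number of the 5 genes with a lower mean percentile in shMettl14, 2, ran from 1 to 3 with 1 list left out. The summit shift stayed between 17 and 30.5 nt with 1 list left out.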
